A study of Homo sapiens with 6 samples.

Results

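The long intergenic noncoding RNAs that carry a LINC symbol were followed in SCC25, a human squamous cell carcinoma line from the tongue, on the HTA 2.0 microarray, which measures transcript clusters (sets of probes drawn from 1 transcribed region). Of 67528 clusters on the array, 538 formed the set described here. They are the clusters whose only gene symbol in the array annotation is LINC followed by digits, with 1 cluster kept for each symbol, the one with the highest mean over the 6 arrays (554 clusters before this step). The array also held 1563 clusters of other lncRNAs and 18201 clusters of mRNAs with 1 symbol.

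Long noncoding RNAs are transcripts without a known protein product, and the intergenic ones lie between protein-coding genes. Some act on chromatin or transcription close to their own gene, others bind proteins or microRNAs elsewhere in the cell, and a LINC number is given where no function was known at naming. Most are made at low levels and in few cell types, and several are studied in carcinomas for links to growth and invasion.

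TM (tunicamycin, 5 µg mL−1 for 6 h) was given to 3 samples of SCC25 cells. The 3 control samples received the vehicle DMSO (0.1%) for the same 6 h. TM stops N-linked glycosylation, so unfolded proteins gather in the endoplasmic reticulum (ER) and the unfolded protein response starts, in which IRE1, PERK and ATF6 signal from the ER to the nucleus. Both groups were the same line in DMEM/F12 medium with serum, and the design text calls the 3 samples of each group independent biological replicates. For the TM samples, 1 label field reads SCC28 where the others read SCC25.

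Values are log2 signals as deposited, and a difference of 1 is a 2-fold difference in signal. Of the squamous and epithelial markers, 6 of 9 were measured and lay between 9.83 and 13.2, with KRT5 at the top. Levels of the arrays labelled TM 3 and control 3 went against their labels for ER stress genes. DDIT3, which codes for the ER stress factor CHOP, read 9.04, 8.88 and 5.86 in TM 1, 2 and 3, against 6.02, 6.01 and 9.28 in control 1, 2 and 3. The other 6 ER stress genes examined (HERPUD1, HSPA5, PDIA4, SEL1L, SESN2 and TRIB3) had the same pattern. The labels were kept, so the comparison was made over all 6 arrays and again with replicates 1 and 2 alone.

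The gene table of RefSeq held all 538 members, 413 by gene number, 93 by symbol and 32 by an older symbol. Of these, 523 are still classed as lncRNA, 13 are now classed as protein-coding genes and 2 as transcribed pseudogenes. The 13 include LINC00948, now MRLN, the micropeptide myoregulin of muscle, LINC00961, now SPAAR, LINC00684, now FAM236A, and the pair LINC00371 and LINC00372, both now C13orf42. LINC00152 is now called CYTOR and LINC00866 is GOLGA7B-DT.

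Promoters are shown for the 5 members that combined a small p in the comparisons below with an entry in the RefSeq promoter table. They frame the contrast between LINC01387 and LINC00602, whose 3 TM arrays all lay above their 3 control arrays, and LINC00365, which went against the labels in replicate 3. Each window runs 5′ to 3′ for 300 bases, 250 before and 50 after the start of the RNA, in build GRCh38.p14. The windows are chr9:135342999-135343298 (plus strand) for LINC02907, chr6:165987301-165987600 (plus strand) for LINC00602, chr13:26059473-26059772 (minus strand) for LINC00415, chr13:30108826-30109125 (minus strand) for LINC00365 and chr18:6511166-6511465 (plus strand) for LINC01387. Capitals mark the matches found among 8 motifs searched on both strands, a CCAAT box on the opposite strand in LINC00602 and a TATAAA on the opposite strand in LINC01387.
LINC02907: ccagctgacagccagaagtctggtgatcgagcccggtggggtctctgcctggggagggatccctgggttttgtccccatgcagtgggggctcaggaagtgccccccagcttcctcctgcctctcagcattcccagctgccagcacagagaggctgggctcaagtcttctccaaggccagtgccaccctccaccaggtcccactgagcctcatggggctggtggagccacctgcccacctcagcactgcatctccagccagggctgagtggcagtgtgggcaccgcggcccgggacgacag
LINC00602: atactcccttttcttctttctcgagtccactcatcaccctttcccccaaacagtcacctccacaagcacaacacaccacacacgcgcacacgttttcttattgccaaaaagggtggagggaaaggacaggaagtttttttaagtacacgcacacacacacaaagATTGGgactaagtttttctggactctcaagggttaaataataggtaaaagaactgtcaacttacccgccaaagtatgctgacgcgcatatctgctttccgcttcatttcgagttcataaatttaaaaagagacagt
LINC00415: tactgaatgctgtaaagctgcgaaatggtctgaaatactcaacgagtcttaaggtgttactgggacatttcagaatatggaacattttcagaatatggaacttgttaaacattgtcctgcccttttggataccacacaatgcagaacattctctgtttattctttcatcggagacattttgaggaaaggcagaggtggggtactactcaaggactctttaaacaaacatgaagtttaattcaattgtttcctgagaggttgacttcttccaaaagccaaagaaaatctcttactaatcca
LINC00365: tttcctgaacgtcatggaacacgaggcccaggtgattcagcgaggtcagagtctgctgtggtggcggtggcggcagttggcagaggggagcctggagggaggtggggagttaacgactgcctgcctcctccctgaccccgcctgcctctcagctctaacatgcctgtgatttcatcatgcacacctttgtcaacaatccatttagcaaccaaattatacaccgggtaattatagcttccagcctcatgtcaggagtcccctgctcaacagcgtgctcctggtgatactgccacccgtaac
LINC01387: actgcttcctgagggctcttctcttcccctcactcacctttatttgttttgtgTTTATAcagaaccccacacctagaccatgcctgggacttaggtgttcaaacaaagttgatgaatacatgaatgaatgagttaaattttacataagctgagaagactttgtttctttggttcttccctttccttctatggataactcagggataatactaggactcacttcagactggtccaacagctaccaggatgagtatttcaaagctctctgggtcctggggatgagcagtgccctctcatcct

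The windows of LINC02907, LINC00415 and LINC00365 held none of the 8 motifs. GC content was 66.0% in LINC02907, 55.7% in LINC00365, 43.3% in LINC01387, 43.0% in LINC00602 and 37.7% in LINC00415, and the mean was 51.7% over the 418 windows of the 384 members in the table and 57.5% over all 35116 windows.

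The motifs include 3 that factors of the unfolded protein response are known to bind. The ER stress response element, searched as CCAAT and CCACG 9 bases apart, was in 0 of 418 member windows and in 0.0769% of all windows. TGACGTGG, known from XBP1 and ATF6, was in 1.2% of member windows, those of LINC00261, LINC00426, LINC00454, LINC00710 and LINC03006, against 0.729% of all windows. TGATGCAAT, bound by ATF4 with a C/EBP partner, was in 1 member window, that of LINC00640, or 0.239%, against 0.236% of all windows.

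Other promoter motifs were also counted. The AP-1 motif TGACTCA was in 9.57% of member windows, against 4.95% of all windows, and the GC box GGGCGG was in 24.9%, against 45.0%. TATAAA was in 13.6%, against 11.5%, CCAAT in 36.4%, against 34.6%, and the cAMP response element TGACGTCA in 1.2%, against 1.85%. CCAAT is also the first element of the ER stress response element as searched here. These shares are counts of letters in fixed windows.

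The LINC clusters were dim. Their median mean signal was 5.01 (quartiles 3.89 and 5.97, range 2.64 to 11.1), against 5.34 for other lncRNA clusters and 7.06 for mRNA clusters. Only 197 of 538 (36.6%) lay above the median of all clusters. The table holds no detection calls. The LINC RNAs known mainly from other lineages (6 of 13 listed had a cluster), such as LINC00261 of liver and gut endoderm at 4.51, and LINC00844, known from prostate, at 2.71, spanned 2.71 to 5.87. The leukocyte markers PTPRC, CD3E and CD14 spanned 3.26 to 5.96 in these carcinoma cells. Endothelial markers spanned 4.64 to 6.05, and fibroblast markers 5.24 to 7.81, with COL1A1 at the top. Within these ranges, transcribed RNAs and probes at background cannot be told apart.

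The brightest 12 members stood above those ranges. LINC00273 led with 11.06, 10.96 and 11.18 in TM 1, 2 and 3, against 11.27, 11.09 and 11.05 in control 1, 2 and 3. LINC01002, LINC01001, LINC00958 and LINC01000 followed at means of 10.35, 10.02, 9.87 and 9.76. LINC00963, LINC00999, LINC01061, LINC02893, LINC00265, LINC00707 and LINC00152 completed the 12, with means between 8.57 and 9.18. LINC00958, an RNA studied in bladder and oral carcinomas, read 9.82, 9.80 and 9.94 in TM samples, against 9.95, 9.91 and 9.82 in control samples, and the groups overlapped. Probes differ in response, so the order of these signals is not an order of RNA amounts. The second cluster of LINC00273 read 7.0, which is 4.10 below the first.

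Over all 6 arrays, none of the 538 LINC clusters differed between TM and control at an adjusted p under 0.05 (limma, Benjamini-Hochberg over all 67528 clusters). The smallest adjusted p was 0.143, and 0% of all clusters passed. At an unadjusted p under 0.05, 109 LINC clusters differed (20.3%), against 20.5% of all clusters. A fold change of at least 1.2 was then added, which gives the thresholds that the study used for its array. At these, 32 LINC clusters were higher in TM (5.95%, against 4.24% of all clusters and 4.22% of other lncRNA clusters). In the other direction, 1 was lower (0.186%, against 1.68% of all clusters and 0.192% of other lncRNA clusters). Without TM 3 these counts were 54 and 3, and without control 2 they were 46 and 2. With each array centred on its median they were 15 and 5, and after quantile normalization 18 and 2. Differences were small, and the log2 fold change of all members lay between −0.28 and 0.51. In RNA of a whole culture, a change in every cell and a change in some of them cannot be told apart.

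The LINC clusters with p under 0.05 whose 3 TM arrays all lay above their 3 control arrays numbered 95 (17.7%, against 14.1% of all clusters). Those with all TM arrays below all control arrays numbered 6 (1.12%, against 4.34%). Of other lncRNA clusters, 15.4% lay above and 1.02% below by the same rule. The 8 with the highest fold changes among the 95 were LINC00051, LINC00694, LINC00302, LINC02135, LINC00866, LINC00942, LINC00684 and LINC01387.

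LINC00051 read 5.53, 5.87 and 5.73 in TM 1, 2 and 3, against 5.28, 5.10 and 5.23 in control 1, 2 and 3. The means were 5.71 ± 0.17 and 5.20 ± 0.10 (SD, n = 3 each), a log2 fold change of 0.51 (SE 0.096, limma adjusted p = 0.143), or 1.42-fold. Its nearest protein-coding gene is TSNARE1.

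LINC01387 had the smallest standard error of the 8. It read 5.37, 5.28 and 5.28 in TM samples, against 4.98, 4.90 and 4.94 in control samples, with means of 5.31 ± 0.05 and 4.94 ± 0.04 (SD, n = 3 each) and a log2 fold change of 0.37 (SE 0.053, limma adjusted p = 0.143). The TM and control arrays were separated by more than the range within either group. L3MBTL4, its nearest protein-coding gene, which codes for a protein with chromatin-binding repeats, had a log2 fold change of −0.031.

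LINC00302 lies among the genes of the cornified envelope, the outer shell of keratinocytes, with LCE2D as its nearest protein-coding gene. It was dim, with 3.91, 3.91 and 4.03 in TM samples, against 3.66, 3.57 and 3.32 in control samples (log2 fold change 0.44, SE 0.094). LCE2D read 5.11, 5.46 and 5.09 in TM samples, against 5.04, 4.99 and 4.99 in control samples (log2 fold change 0.21, limma adjusted p = 0.292). The groups did not overlap for either of them.

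LINC00694, now classed as a transcribed pseudogene, varied most within TM. It read 5.66, 6.10 and 5.33 in TM samples, against 5.12, 5.25 and 5.21 in control samples (log2 fold change 0.50, SE 0.18, and 0.30 without TM 2). LINC02135, next to the transcription factor gene FOXF1, read 5.28, 5.63 and 5.35 in TM samples, against 5.01, 4.90 and 5.07 in control samples. LINC00866 read 6.60, 6.88 and 6.66 in TM samples, against 6.40, 6.22 and 6.35 in control samples, and its neighbour is GOLGA7B. TM 2 gave the highest value of the 6 arrays for each of these.

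LINC00942 lay between 5.76 and 5.99 in TM samples, against 5.38 to 5.52 in control samples. LINC00684 (FAM236A) read 6.36, 6.60 and 6.40 in TM samples, against 6.07, 6.03 and 6.11 in control samples. Its second cluster gave a log2 fold change of 0.40 beside 0.38 for the first.

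LINC00641 was the only member lower in TM at both thresholds over 6 arrays. It read 6.11, 6.07 and 6.00 in TM samples, against 6.33, 6.27 and 6.42 in control samples. The means were 6.06 ± 0.05 and 6.34 ± 0.08 (SD, n = 3 each), a log2 fold change of −0.28 (SE 0.061, limma adjusted p = 0.143). Its neighbour HNRNPC, which codes for a protein that packages nascent RNA, had a log2 fold change of −0.044. The other 5 members with all TM arrays below all control arrays were LINC02582, LINC00709, LINC00857, LINC02274 and LINC02877, at log2 fold changes of −0.20 to −0.13, and LINC00709, LINC02274 and LINC02877 lay in the dimmest part of the members, at 2.59 to 3.22 in TM samples and 2.73 to 3.34 in control samples.

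**Figure D1:**
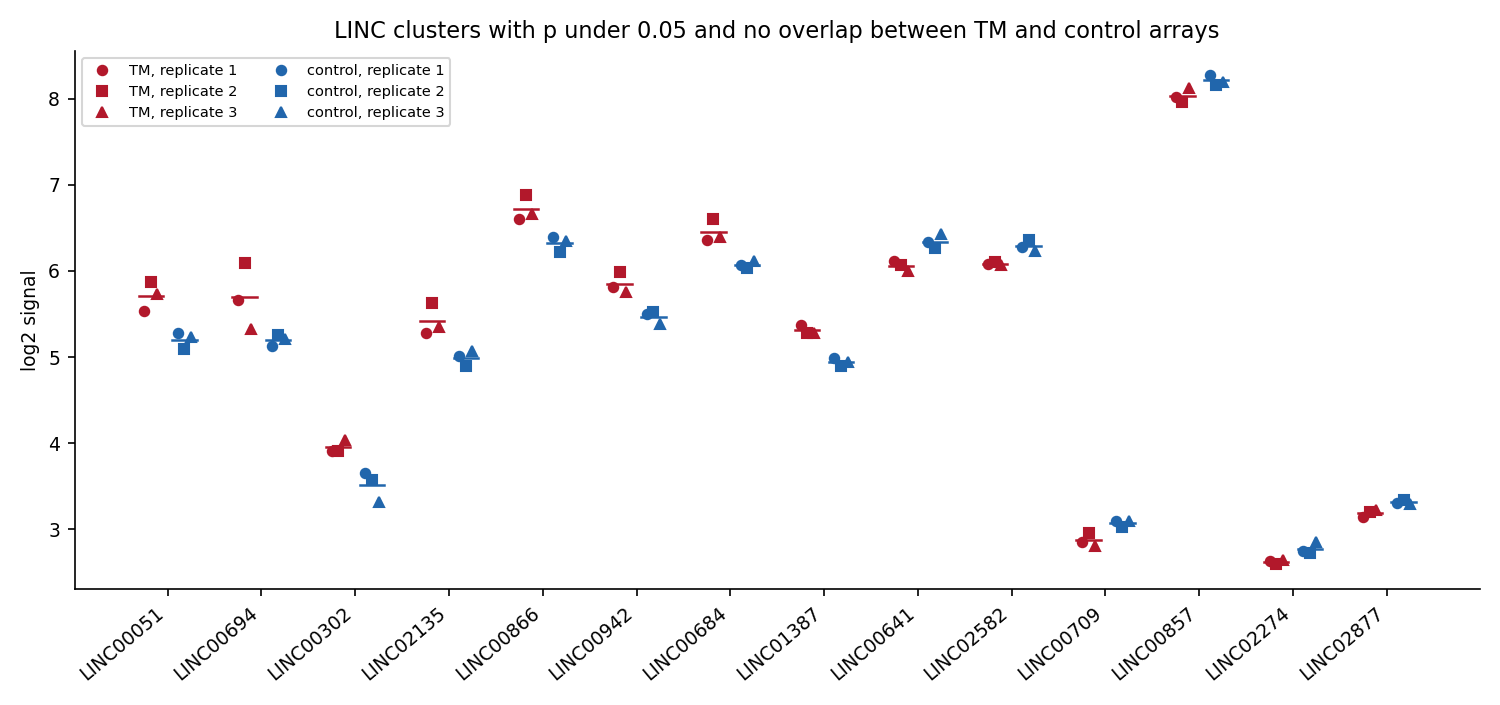
Log2 signal (vertical axis) in each TM array (red, left) and control array (blue, right) of the 14 LINC clusters with p under 0.05 and no overlap between groups that were picked by fold change. Symbols mark the replicate number and lines the mean of 3 arrays. LINC00051 averaged 5.71 in TM and 5.20 in control, and LINC00641 averaged 6.06 in TM and 6.34 in control.

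As a class, the LINC clusters leaned towards higher signal in TM samples. Their median log2 fold change over 6 arrays was 0.074, against 0.037 for all clusters, 0.070 for other lncRNA clusters and 0.031 for mRNA clusters. Of the 538, 414 (77.0%) lay above 0, against 61.2% of all clusters, 75.2% of other lncRNA clusters and 59.9% of mRNA clusters. The median over the members was 5.02, 5.06 and 5.03 in TM 1, 2 and 3, against 4.95, 4.95 and 4.89 in control 1, 2 and 3, so the groups did not overlap. The same held for all clusters, at 5.486, 5.518 and 5.522 in TM samples, against 5.445, 5.475 and 5.392 in control samples. It also held for other lncRNA clusters and for mRNA clusters. With each array centred on its median the members' median was 0.0033, and after quantile normalization it was 0.023.

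The lean went with signal level. Over 5 equal bins of all clusters by mean signal, the median log2 fold change of LINC clusters was 0.043, 0.079, 0.11, 0.077 and −0.014 from the dimmest to the brightest bin. For mRNA clusters in the same bins it was 0.042, 0.077, 0.11, 0.080 and −0.026. For other lncRNA clusters it was 0.033, 0.080, 0.088, 0.081 and −0.0041. For all clusters it was 0.018, 0.066, 0.089, 0.068 and −0.029, below the LINC clusters in each bin. Of the LINC clusters 163 (30.3%) lay in the middle bin and 25 (4.65%) in the brightest one, where 41.3% of mRNA clusters lay.

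Markers of cells that a carcinoma line should not hold were measured beside the lean. The summed log2 signal of the 3 endothelial markers PECAM1, VWF and CDH5 was 16.60 to 16.64 in TM samples and 15.99 to 16.25 in control samples. The 4 fibroblast markers measured summed to 25.05 to 25.42 in TM samples and 24.76 to 25.29 in control samples, and the 3 leukocyte markers to 14.67 to 14.96 in TM samples and 14.41 to 14.72 in control samples. None of these markers was at 0 or passed the adjusted p, and their part in the result was not tested.

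**Figure D2:**
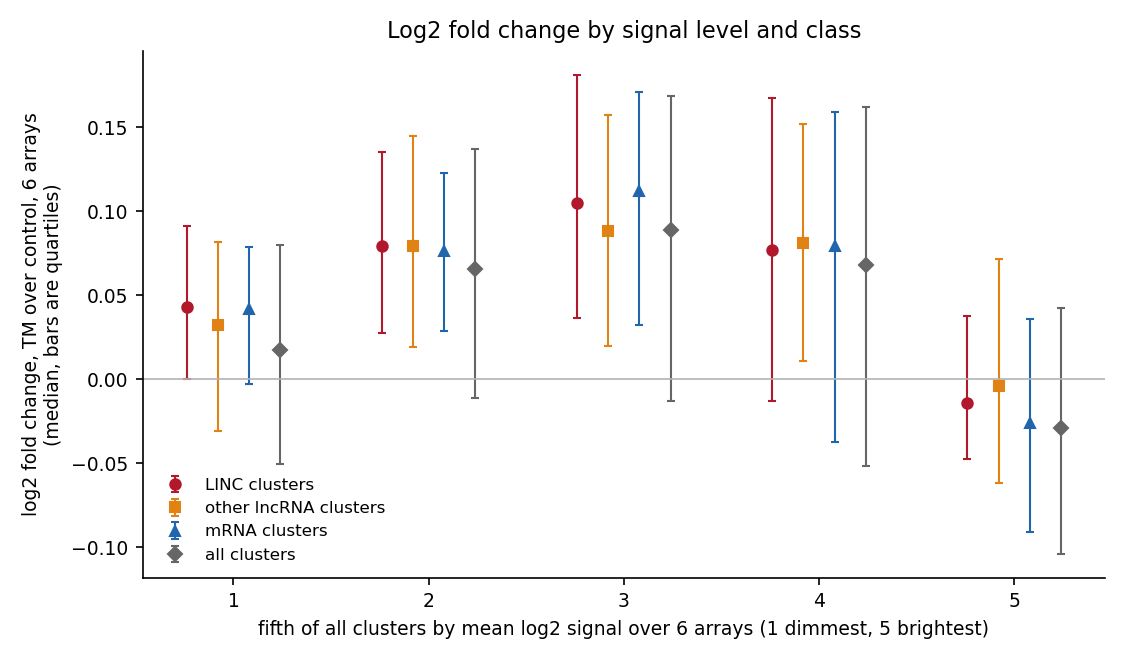
Median log2 fold change of TM over control over 6 arrays (vertical axis, bars are quartiles) in 5 equal bins of all clusters by mean log2 signal (horizontal axis, dimmest left), for LINC, other lncRNA, mRNA and all clusters. The medians of LINC clusters (0.11 in the middle bin and −0.014 in the brightest) and of mRNA clusters (0.11 and −0.026) lie close together.

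With replicates 1 and 2 alone, again no LINC cluster passed the adjusted p under 0.05, against 1.22% of all clusters, 10 of 1563 other lncRNA clusters and 248 of 18201 mRNA clusters. The smallest adjusted p was 0.0526. At an unadjusted p under 0.05, 115 LINC clusters differed (21.4%, against 26.9% of all clusters). With the fold change of 1.2 in addition, 54 were higher in TM (10.0%, against 6.96% of all clusters and 7.23% of other lncRNA clusters). In the other direction, 8 were lower (1.49%, against 7.6% of all clusters and 2.5% of other lncRNA clusters). These counts were 36 and 20 with median centring and 39 and 17 after quantile normalization. When clusters below the median signal were left out of the test, 27 of 198 LINC clusters (13.6%) passed the adjusted p, against 16.6% of all clusters tested. With the trend and robust options of limma 21 (3.90%) did, against 6.77% of all clusters, so the absence of calls depended on these settings. Of the 54, 29 were also among the 32 found higher with 6 arrays, and none of the 8 was lower by both.

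The members with the smallest p in the higher direction were LINC02907, LINC02894, LINC00484, LINC00602, LINC00415 and LINC00365, at adjusted p between 0.0526 and 0.0553 by limma. LINC02907 read 6.62 and 6.68 in TM 1 and 2, against 6.22 and 6.25 in control 1 and 2 (log2 fold change 0.42, SE 0.062). In replicate 3 it read 6.38 in TM, against 6.29 in control, so TM 3 lay between the other TM arrays and the controls.

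LINC00602, next to the phosphodiesterase gene PDE10A, read 6.05, 6.03 and 5.83 in TM 1, 2 and 3, against 5.59, 5.68 and 5.68 in control 1, 2 and 3. Its log2 fold change was 0.40 (SE 0.064) in replicates 1 and 2. LINC00415, next to SHISA2, read 7.04, 7.08 and 6.72 in TM samples, against 6.49, 6.66 and 6.61 in control samples (log2 fold change 0.48, SE 0.077). For both, TM and control arrays did not overlap over all 6, and the 2 promoters are printed above.

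LINC00484 read 4.98, 5.12 and 4.65 in TM samples, against 4.58, 4.60 and 4.61 in control samples, with TM 3 only just above the controls. LINC02894, next to ESRP1, the gene of an epithelial splicing factor, read 6.36, 6.34 and 5.92 in TM samples, against 5.98, 5.94 and 6.03 in control samples. Here TM 3 was below all 3 control arrays, and over 6 arrays the limma adjusted p was 0.336.

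LINC00365 showed the largest difference among the members in replicates 1 and 2, and it went with the ER stress genes in all 6 arrays. It read 6.31, 6.32 and 5.81 in TM 1, 2 and 3, against 5.74, 5.38 and 6.25 in control 1, 2 and 3. In replicates 1 and 2 the log2 fold change was 0.76 (SE 0.12, limma adjusted p = 0.0553), or 1.69-fold. Over 6 arrays it was 0.36 (SE 0.23, adjusted p = 0.418). Its nearest protein-coding gene KATNAL1, which codes for a microtubule-severing katanin, lay the other way, with 7.63, 7.78 and 8.02 in TM samples, against 8.02, 7.97 and 7.78 in control samples.

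LINC00365 and LINC00694 were the 2 members past a fold change of 1.5 in replicates 1 and 2. Just inside and outside the threshold of 1.2 there were LINC00479 at a log2 fold change of 0.265 and LINC03027 at 0.262. For 6 arrays LINC01235 lay at 0.2641 and LINC00659 at 0.2630, either side of the limit.

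The 8 LINC clusters lower in TM 1 and 2 were LINC00152, LINC00260, LINC00317, LINC00500, LINC00525, LINC00622, LINC00707 and LINC00997. LINC00152 (CYTOR), an RNA studied for its part in the cytoskeleton and in carcinoma growth, read 8.47, 8.39 and 8.70 in TM 1, 2 and 3, against 8.64, 8.81 and 8.40 in control 1, 2 and 3. Its log2 fold change was −0.30 (SE 0.081, limma adjusted p = 0.103) in replicates 1 and 2. LINC00525 read 6.65, 6.51 and 6.96 in TM samples, against 6.91, 6.95 and 6.35 in control samples (log2 fold change −0.35 in replicates 1 and 2). In each of the 2, TM 1, TM 2 and control 3 were the low arrays.

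LINC00707 differed from them in that control 3 stayed with the other controls. It read 8.51, 8.69 and 8.86 in TM samples, against 9.03, 8.85 and 8.85 in control samples, so its low arrays were TM 1 and 2. The limma adjusted p was 0.108 in replicates 1 and 2 and 0.260 over 6 arrays.

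**Figure D3:**
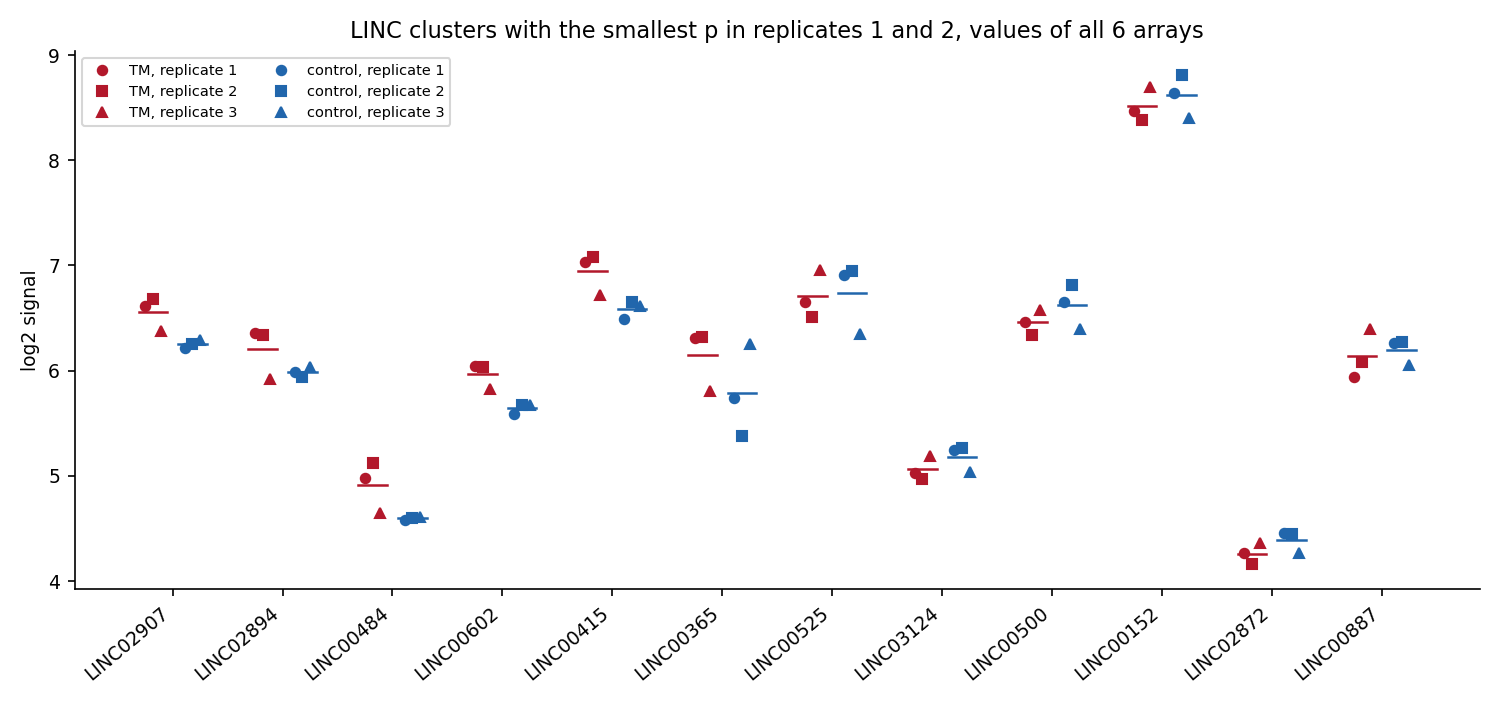
Log2 signal (vertical axis) in each TM array (red, left) and control array (blue, right) of the 12 LINC clusters with the smallest p in replicates 1 and 2, 6 in each direction. Symbols mark the replicate number and lines the mean of 3 arrays. For LINC00365 and LINC00525 the replicate 3 arrays (triangles) lie on the side of the other group, with LINC00365 at 5.81 in TM 3 and 6.25 in control 3.

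The replicate 3 arrays had no part in choosing these members. Of the 54 higher members, 40 (74.1%) were also higher in TM 3 than in control 3, against 66.4% of all clusters chosen by the same thresholds, and 14 were not. The median of TM 3 minus control 3 over the 54 was 0.12 on the log2 scale, against a median log2 fold change of 0.35 in replicates 1 and 2. That median was 0.10 over all 538 members. It was 0.12 over all clusters called higher and 0.14 over all clusters called lower. For 34 of the 54 (63.0%) the TM and control groups did not overlap over all 6 arrays, against 59.8% of the 4699 clusters called higher. Of the 8 lower members, 0 were lower in TM 3 than in control 3, against 26.7% of all clusters chosen as lower. In all 8, control 3 was below control 1, control 2 and TM 3, against 71.4% of the 5129 clusters called lower, although for LINC00707 it was within 0.013 of TM 3.

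In 13 of the 54 higher members (24.1%) control 3 lay above control 1, control 2 and TM 3, as it did for the ER stress genes. The share over all 4699 clusters called higher was 31.6%. Those with the widest gaps, named after their values were seen, were LINC01881, LINC00662, LINC00365, LINC02693 and LINC02551. LINC01881 read 7.89, 7.79 and 7.41 in TM 1, 2 and 3, against 7.48, 7.58 and 8.08 in control 1, 2 and 3. LINC00662, studied in several carcinomas, read 7.38, 7.36 and 6.95 in TM samples, against 7.06, 6.94 and 7.48 in control samples. LINC02693 read 7.40, 7.59 and 6.99 in TM samples, against 7.04, 7.03 and 7.43 in control samples. In these 3, TM 3 lay at the level of control 1 and 2 or below, and control 3 at or above that of TM 1.

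**Figure D4:**
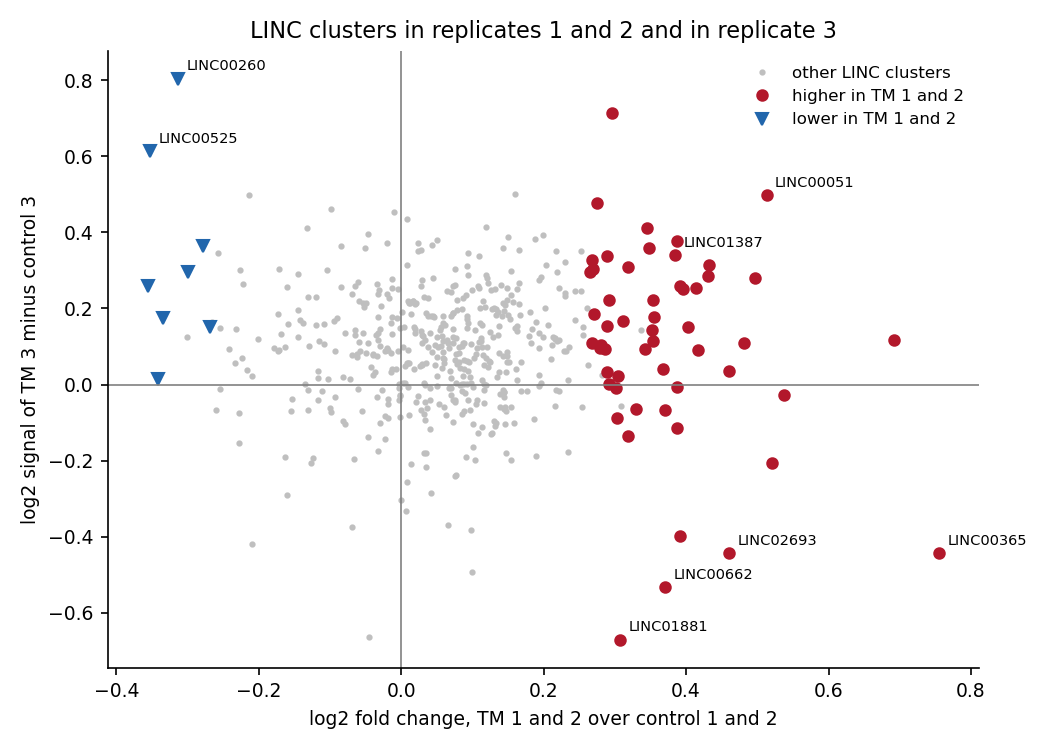
TM 3 minus control 3 in log2 signal (vertical axis) against the log2 fold change of TM 1 and 2 over control 1 and 2 (horizontal axis) for the 538 LINC clusters. Red circles are the 54 members higher and blue triangles the 8 members lower in TM 1 and 2 at p under 0.05 and a fold change of 1.2. All 8 triangles lie above the horizontal line, and 14 circles lie below it.

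Of 28 LINC RNAs listed for their study in squamous and other epithelial carcinomas, 19 had a cluster. Over 6 arrays none of the 19 passed p under 0.05 with the fold change of 1.2, and in replicates 1 and 2 LINC00662 was higher and LINC00152, LINC00525 and LINC00707 were lower, where 6.96% of all clusters were higher and 7.6% lower. Their median log2 fold change was −0.031 over 6 arrays, against 0.037 for all clusters. Their median signal of 7.02 was above that of the members as a whole.

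At p under 0.05 alone over 6 arrays, LINC00857 was lower and LINC00319 higher, the second at a log2 fold change of 0.22, or 0.14 without TM 2. LINC00857, studied in lung and other carcinomas, read 8.02, 7.96 and 8.12 in TM samples, against 8.27, 8.16 and 8.20 in control samples (log2 fold change −0.18, limma adjusted p = 0.198). LINC00460, an RNA linked to invasion, read 5.26, 5.36 and 5.13 in TM samples, against 5.31, 5.30 and 5.46 in control samples, and the groups overlapped.

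The signal-responsive LINC RNAs had 2 of 4 listed members on the array. LINC00473, which cAMP and CREB are known to induce, read 4.42, 4.33 and 4.34 in TM samples, against 4.23, 4.06 and 4.11 in control samples. The groups did not overlap, the log2 fold change was 0.23 (SE 0.061, limma adjusted p = 0.151), and the signal lay within the range of the lineage markers above. LINC00305 read 3.93, 3.89 and 3.97 in TM samples, against 3.84, 3.90 and 3.87 in control samples. None of the 6 lineage RNAs measured passed p under 0.05.

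Each member was paired with its nearest protein-coding gene in the RefSeq table that had a cluster of its own, which gave 449 genes. No limit was set on the distance. A gene named here as next to or beside a member is thus only the nearest such gene, and may lie far from it. Across the 538 members, which share some neighbours and all arrays, the log2 fold changes of member and neighbour had Pearson r = 0.036 and Spearman rho = 0.096 in replicates 1 and 2. For the 29 members that overlap the neighbour, r was 0.32 and rho 0.51, and there the probes of both genes can lie in shared sequence. In replicates 1 and 2, 7 of the 54 higher members (13.0%) had a neighbour that was also higher at p under 0.05 and a fold change of 1.2, against 45 of all 538 (8.36%), and LINC00365 was higher beside a lower neighbour.

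The neighbours that passed the adjusted p in replicates 1 and 2 stood beside 21 of the 538 members, some of which share a neighbour. Of all clusters 1.22% passed there, and of mRNA clusters 1.36%. These shares count each cluster once, whereas the 21 counts a shared neighbour once for each member. Each neighbour was also the brightest cluster of its gene, so the 21 and these shares are not a like measure. SLC7A11, the cystine transporter gene and a known target of ATF4, read 9.52, 9.54 and 8.02 in TM 1, 2 and 3, against 8.16, 8.08 and 9.56 in control 1, 2 and 3 (log2 fold change 1.41 in replicates 1 and 2, limma adjusted p = 0.0079). It is the neighbour of LINC00498, LINC00499, LINC00500 and LINC00616. LINC00500 read 6.47, 6.34 and 6.57 in TM samples, against 6.66, 6.82 and 6.40 in control samples, a log2 fold change of −0.33 in replicates 1 and 2. The others lay between 0.077 and 0.12 there and had p above 0.05.

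LINC01512, beside the angiogenic factor gene VEGFA, was higher with its neighbour. It read 6.00, 5.93 and 5.96 in TM samples, against 5.52, 5.63 and 5.70 in control samples, and the log2 fold change was 0.39 in replicates 1 and 2 (limma adjusted p = 0.0626). VEGFA read 9.35, 9.27 and 8.71 in TM samples, against 8.66, 8.70 and 9.32 in control samples (log2 fold change 0.63, adjusted p = 0.0334). VEGFA thus had the pattern of the ER stress genes in replicate 3, whereas LINC01512 stayed higher in TM 3 than in control 3.

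LINC02903 lies beside DNAJB9, the gene of an ER co-chaperone. It read 2.94, 2.91 and 2.94 in TM samples, against 2.71, 3.00 and 3.04 in control samples, and the groups overlapped. DNAJB9 read 7.29, 7.55 and 6.40 in TM samples, against 6.58, 6.55 and 7.22 in control samples.

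**Figure D5:**
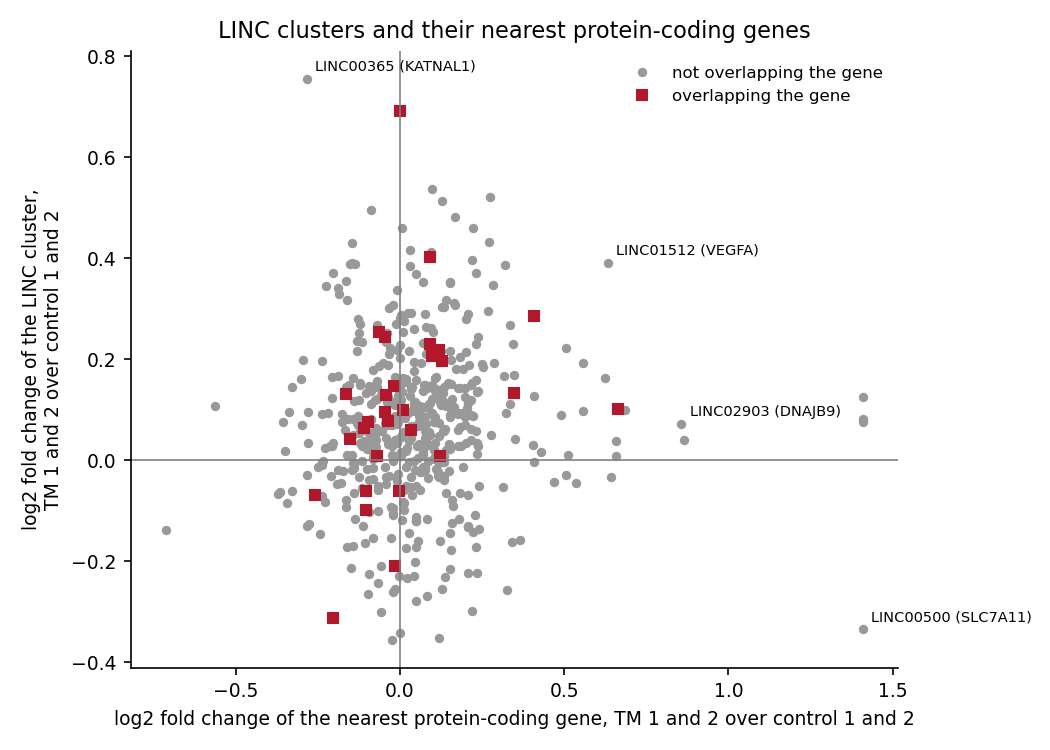
Log2 fold change of TM 1 and 2 over control 1 and 2 of each of the 538 LINC clusters (vertical axis) against that of its nearest protein-coding gene (horizontal axis). Red squares are the 29 members that overlap the gene and grey circles the others. LINC00500 lies at −0.33 beside SLC7A11 at 1.41, and LINC01512 at 0.39 beside VEGFA at 0.63.

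Clusters that the annotation gives to 1 gene can be set side by side as a measure of how far a difference rests on the probes. For 15 symbols there was more than 1 cluster, and for LINC00102, LINC00106 and LINC00685 the values of both were identical. Of the other 12, LINC00273, LINC00667 and LINC00963 had clusters of opposite sign in replicates 1 and 2, and over 6 arrays 5 did. The 2 clusters of LINC00273 had log2 fold changes of −0.17 and 0.24 in replicates 1 and 2. The 3 clusters of LINC02210 lay between −0.22 and −0.16, although their signals ran between 4.84 and 8.16. LINC00371 and LINC00372 (C13orf42) had log2 fold changes of 0.35 each. LINC00499 and LINC00500, now 1 gene, had 0.12 and −0.33, with signals of 3.79 and 6.54.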

How the data were processed

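RNA of SCC25 cells was hybridised to HTA 2.0 arrays by the authors, with 3 TM and 3 control samples. The deposited values are log2 signals, 1 per transcript cluster and array, which the authors summarised and normalized. MAS5 is named in the submitters' processing notes. How the background was corrected, and which probe set version and build were used, is not given in the sources used here, so coordinates are printed only for promoter windows of RefSeq (GRCh38.p14), and the gene table of RefSeq served for names, classes and neighbours.

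The values of all 67528 clusters were fitted with limma 3.58.1 (lmFit and eBayes, two-sided, Benjamini-Hochberg over all clusters) in R 4.3.3. Calls used an adjusted p under 0.05, or an unadjusted p under 0.05 with a fold change of at least 1.2, the thresholds of the study. The unadjusted p-values carry no correction for the number of clusters. The members and lists were chosen with earlier results of these data known, as was the comparison of replicates 1 and 2. The named members were the 12 brightest, those with p under 0.05, no overlap and the 8 highest and 8 lowest fold changes (6 were lower), the 6 with the smallest p in each direction in replicates 1 and 2, list members, and neighbours. The fit was tested on simulated data whose spread was taken from replicates 1 and 2. These data did not hold the pattern of TM 3 and control 3, so they do not represent the comparison over 6 arrays. The number of arrays limits the precision. Alternatives were quantile normalization, median centring, trend and robust options, clusters above the median signal alone, the replicate number as a block, the mean of all clusters of a symbol, a fold change of 1.5 and leaving out each array. Python 3.11.15 with matplotlib 3.10.9 made the figures.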

Additional observations from a re-analysis of the deposited data

How the results depend on the processing

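Over 6 arrays, the count of LINC clusters past the adjusted p was 0 under each alternative tried, by limma, with 109 at an unadjusted p under 0.05 in the fit as reported. The 32 higher and 1 lower at p under 0.05 and a fold change of 1.2 became 18 and 2 after quantile normalization, 15 and 5 with median centring, 11 and 1 among clusters above the median signal, 0 and 0 at a fold change of 1.5, and 54 and 8 with replicates 1 and 2 alone. Leaving out 1 array gave 27 to 54 higher and 1 to 3 lower. The members' median log2 fold change of 0.074 became 0.023 after quantile normalization and 0.0033 with median centring, and the SD of the median between replicates was 0.029.

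In replicates 1 and 2, the count past the adjusted p was 0, and it was 3 with median centring (LINC02907, LINC00484 and LINC00415), 21 with trend and robust options, 27 among clusters above the median signal, where fewer clusters were tested, and 0 to 1 when 1 array was left out (LINC00365 without control 1, with the lone control array assumed to vary like the TM arrays). The 54 higher became 30 above the median signal and 2 at a fold change of 1.5, and lay between 41 and 67 with 1 array left out. The 8 lower became 17 after quantile normalization, 20 with median centring and 0 at a fold change of 1.5, and lay between 10 and 11 with 1 array left out. The cause of these differences was not tested.

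The deviations of same-numbered samples from their group means correlated at −0.18, −0.31 and −0.53. TM 3 and control 3 lay at the level of the other group for ER stress genes. These correlations therefore cannot show whether the replicate numbers pair the samples. With the replicate block the counts were 31 higher and 1 lower over 6 arrays, and 52 higher and 8 lower in replicates 1 and 2, with 0 past the adjusted p in both. Among 1287 values of named members under the alternatives, 75 had the opposite sign to the value as reported, for 25 members, and none of these had p under 0.05 as reported. LINC00273 had the largest of them, at −0.17 in replicates 1 and 2 and 0.034 as the mean of both its clusters. Over 6 arrays 629 of 730 and in replicates 1 and 2 501 of 557 kept both their side of the threshold and their size within the limits set. Trend and robust options, the replicate block and clusters above the median signal alone leave a log2 fold change as it is. The mean of all clusters can change it only where a symbol has more than 1 cluster. Sign and size were thus fixed in advance for part of these values, and the counts overstate how stable they were. The dim signal of most members, in the range of lineage markers, limits what these arrays can show.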
